A study of Mus musculus with 4 samples.

Results

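The genes described here are 10 genes of the Nrf2 antioxidant response (Nfe2l2, Keap1, Nqo1, Gclc, Gclm, Txnrd1, Srxn1, Hmox1, G6pdx and Slc7a11), out of 33269 genes or accessions on the array. They were chosen by name, and their probes were found through the RefSeq accession that the scanner files give each probe. All 10 genes were matched, by 15 probes among 41174. Of these, 9 could be tested among 25095 genes, and Slc7a11 could not, because none of its 3 probes was well above background in any channel.

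Liver RNA came from female CD-1 mice, an outbred stock, all 8 weeks old. One group had received siRNA against Cux2, a homeobox transcription factor whose liver expression is female-biased, and was killed 5 days later. A second group had received the same siRNA and was killed 8 days later. The control group had received a non-specific siRNA, so that all mice in the study were given siRNA. When the control mice were killed is not stated. Each of 4 Agilent 2-colour arrays set 1 treated pool of RNA against 1 control pool, with 2 arrays for each day. The treated pools held 3 mice (day 5 replicate 1) or 2 mice (the other 3 arrays). According to the design text 13 control mice made up 2 pools of 6 or 7, whereas the sample descriptions give 6 control mice for each array, and which control pool was on which array is not stated. In replicate 1 of each day the Cux2 siRNA pool was labelled with Alexa 647, and in replicate 2 with Alexa 555. Replicate number, dye orientation and possibly control pool therefore cannot be told apart. All values below are log2 ratios of Cux2 siRNA over non-specific siRNA unless a log2 intensity is named. Standard errors (SE), 95% intervals and adjusted p-values come from a single limma model of the 4 arrays with Benjamini-Hochberg adjustment over all genes tested, and "passed" means an adjusted p under 0.05. Because each measurement is of a pool, the p-values reflect the spread between pools and dyes, not between animals. If 2 control pools served all 4 arrays, as in the design text, the 4 ratios are not fully independent. The model treats them as independent, in its SE, intervals and p-values alike.

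Nrf2, the protein made from Nfe2l2, is a transcription factor that is held at a low level by Keap1, an adaptor that delivers it to a ubiquitin ligase. Electrophiles and oxidants modify Keap1, after which Nrf2 accumulates, pairs with a small Maf protein and binds antioxidant response elements. Its targets make and recycle glutathione, reduce thioredoxin and peroxiredoxins, supply NADPH, degrade heme and reduce quinones, and in liver they are best known for protection against reactive drug metabolites.

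The arrays were of 1 slide and shared 1 scan date. Single channels had 71.1% to 74.6% of their probes well above background, and saturation was found nowhere. Cux2, the targeted gene, had ratios of -1.91 and -1.70 at day 5 and -1.07 and -1.20 at day 8, below the control pool on all 4 (mean -1.47, SE 0.06, adjusted p = 0.000913, limma). All 8 hepatocyte markers that were matched, Alb and Ttr among them, were well above background in every channel of every array.

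The 10 genes did not move as 1 block. G6pdx and Srxn1 fell, Txnrd1 rose, and the remaining 6 tested genes, including Nfe2l2 and Keap1, did not pass. With replicate number, and so dye orientation, as a term in the model (the replicate block), 6 of the 9 passed over both days, Nfe2l2, Nqo1 and Gclc being added, but so did 11246 of the 25095 genes, against 7798 without it. The block leaves fewer residual degrees of freedom, so its p-values lean more on the prior. Over both days 3 of the 9 tested genes passed (1 rose and 2 fell), against 31.1% of all genes tested, of which 14.8% rose and 16.3% fell, so the share among these genes was close to that of the array as a whole. At day 5, 1 of 9 passed and fell, against 16.8% of all genes (7.38% rose and 9.42% fell). At day 8, 1 of 9 passed and fell, against 14.3% of all genes (6.27% rose and 8.05% fell). That gene was G6pdx on each day. The median of the 9 genes was -0.04 over both days, against 0.00 for all genes tested, and the range was -0.91 to 0.41. The median size of the ratio, regardless of sign, was 0.21 among the 9 genes and 0.14 among all genes. Txnrd1 and Nqo1 were higher in the treated pool on all 4 arrays, which 26.4% of all genes were, and G6pdx and Srxn1 were lower on all 4, which 26.1% of all genes were. In bulk liver RNA, fewer cells of a type and less RNA per cell cannot be told apart.

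**Figure D1:**
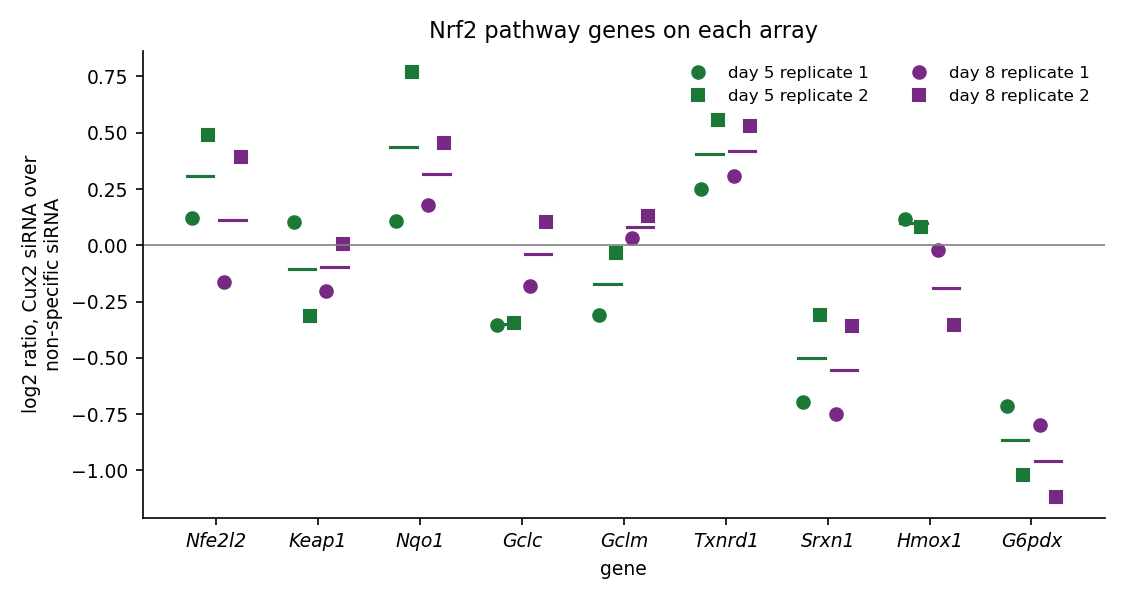
Each point is the log2 ratio of Cux2 siRNA over non-specific siRNA for 1 gene (horizontal axis) on 1 array, green for day 5 and purple for day 8, with circles for replicate 1 and squares for replicate 2; short lines are the means of each day. G6pdx and Srxn1 lie below 0 on all 4 arrays, Txnrd1 and Nqo1 above 0, and the other genes lie near 0 or on both sides of it.

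G6pdx encodes glucose-6-phosphate dehydrogenase, which catalyses the entry step of the pentose phosphate pathway and is a main source of the NADPH that keeps glutathione and thioredoxin reduced. Its log2 ratios were -0.71 and -1.02 at day 5 and -0.80 and -1.12 at day 8. All 4 arrays thus had less of it in the treated pool. The day 5 mean was -0.87 (SE 0.12, adjusted p = 0.0163, limma) and the day 8 mean -0.96 (SE 0.12, adjusted p = 0.0154). Over both days the mean of -0.91 (SE 0.08, 95% interval -1.13 to -0.69, adjusted p = 0.00341) left 53.1% of the control level. In normalised log2 intensity G6pdx ran from 9.97 to 10.12 in the treated pools and from 10.78 to 11.09 in the control pools. The treated and control ranges of Srxn1, and of Nqo1, which did not pass, were also apart. The share of all genes with such a gap was not counted. Leaving out day 5 replicate 1 (-1.02, adjusted p = 0.054) or day 5 replicate 2 (-0.71, adjusted p = 0.123) ended the day 5 call, leaving out day 8 replicate 2 (-0.80, adjusted p = 0.108) ended the day 8 call, and both single-day calls also ended without background subtraction and with the scanner's processed signals. The call over both days ended with median centring in place of loess (-0.94, adjusted p = 0.146).

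G6pdx is also abundant in phagocytes, where NADPH feeds the oxidative burst. Of 17 tested Kupffer cell and macrophage markers 13 fell over both days, 1 rose and 3 did not pass, with a median of -0.61. Of these, 8 fell when day 8 replicate 2 was left out, 9 when day 5 replicate 2 was, and 0 with median centring, where the median was -0.63. Marco, a scavenger receptor of Kupffer cells, had the largest fall among them (-2.84, SE 0.26, adjusted p = 0.00329, limma). The summed linear intensity of the 17 markers was 58091 to 90042 in the treated pools and 108362 to 116870 in the control pools, and all 17 were well above background in every channel. Of 8 tested neutrophil markers 6 fell, or 2 with median centring. Their median was -0.59, but -0.19 without background subtraction and -1.31 with the scanner's processed signals. Their summed intensity, in which the brightest markers weigh most, was 2798 to 4300 in the treated pools and 12969 to 18127 in the control pools. Elane was not well above background in enough channels to be tested. The part of these cells in the G6pdx ratio was not tested.

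Srxn1 encodes sulfiredoxin, which repairs peroxiredoxins that peroxide has over-oxidised. The probe that stands for it gave ratios of -0.70 and -0.31 at day 5 and -0.75 and -0.36 at day 8, so that replicate 1 was the lower on both days. The 2 dimmer probes agreed closely: one gave -0.62 and -0.40 at day 5 and -0.72 and -0.44 at day 8, the other -0.65 and -0.36 at day 5 and -0.75 and -0.44 at day 8. All 3 probes were therefore below 0 on each of the 4 arrays. Srxn1 fell over both days (-0.53, SE 0.10, 95% interval -0.79 to -0.27, adjusted p = 0.0193, limma), to 69.3% of the control level. Taken singly, day 5 gave -0.50 (adjusted p = 0.0786) and day 8 -0.55 (adjusted p = 0.0684), neither of which passed; with the replicate block both did (adjusted p = 0.00543 and 0.00469). With the mean of all 3 probes the day 8 value was -0.58 and passed (adjusted p = 0.0427). The call over both days ended when day 5 replicate 1 (-0.43, adjusted p = 0.064) or day 8 replicate 1 (-0.43, adjusted p = 0.057) was left out, and likewise with median centring (-0.56, adjusted p = 0.133), without background subtraction (-0.48, adjusted p = 0.0612) and with the scanner's processed signals (-0.50, adjusted p = 0.0584).

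Txnrd1 encodes cytosolic thioredoxin reductase, a selenoprotein that uses NADPH to reduce thioredoxin. Its ratios were 0.25 and 0.56 at day 5 and 0.31 and 0.53 at day 8, higher in the treated pool on all 4 arrays, with replicate 2 the higher on both days. It rose 1.33-fold over both days (log2 0.41, SE 0.08, 95% interval 0.21 to 0.61, adjusted p = 0.0183, limma). The single days gave 0.40 (adjusted p = 0.069) and 0.42 (adjusted p = 0.0702) and did not pass without the replicate block, but did with it (adjusted p = 0.00983 and 0.0101). This call ended when day 5 replicate 2 (0.33, adjusted p = 0.071) or day 8 replicate 2 (0.35, adjusted p = 0.0743) was left out and with median centring (0.41, adjusted p = 0.382). Txn1, the thioredoxin that this enzyme reduces, fell over both days (-0.50, SE 0.05, adjusted p = 0.00392, limma), and Gsr, the reductase that does the same for glutathione, also fell (-0.45).

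Nqo1 encodes a quinone reductase and is one of the most used readouts of Nrf2 activity. Its ratios were 0.11 and 0.77 at day 5 and 0.18 and 0.46 at day 8. All 4 arrays were above 0, but the replicates of day 5 were 0.66 apart, the widest such gap among the 9 genes. The mean over both days was 0.38 (SE 0.12, 95% interval 0.05 to 0.70) and did not pass (adjusted p = 0.0812, limma), whereas with the replicate block it did (adjusted p = 0.00799). The day 5 mean was 0.44 (adjusted p = 0.165) and the day 8 mean 0.32 (adjusted p = 0.299). Without day 5 replicate 1 the value over both days was 0.54 and passed (adjusted p = 0.0276).

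**Figure D2:**
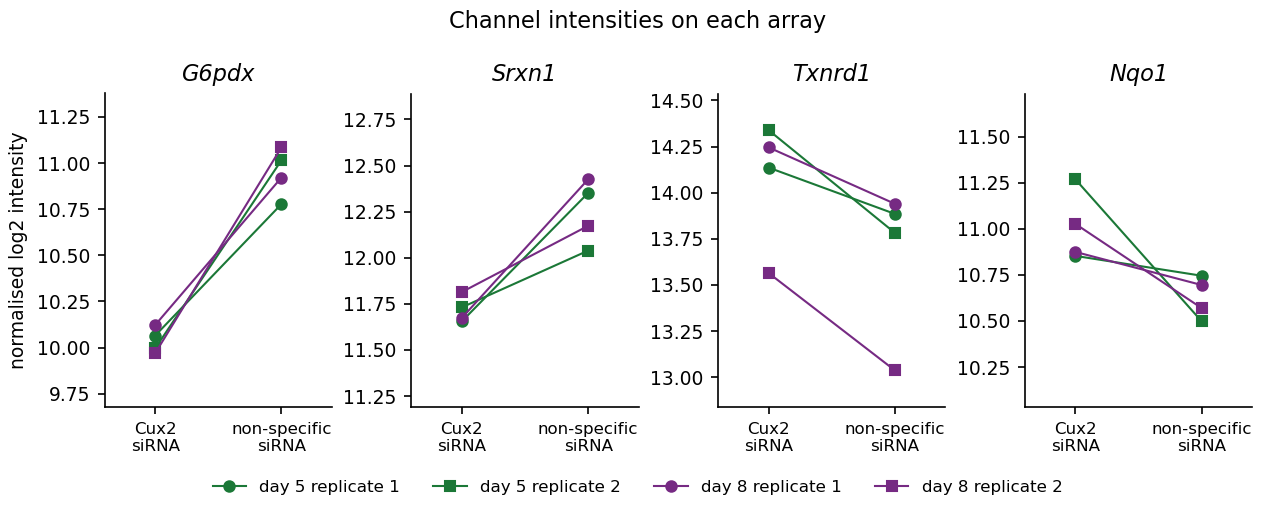
Normalised log2 intensity (vertical axis, 1 probe per gene, each panel spanning 1.7 log2 units) of G6pdx, Srxn1, Txnrd1 and Nqo1 in the Cux2 siRNA pool and the non-specific siRNA pool of each array, joined by a line; green is day 5, purple day 8, circles replicate 1 and squares replicate 2. Every G6pdx and Srxn1 line rises towards the control pool and every Txnrd1 and Nqo1 line falls, and on day 8 replicate 2 both Txnrd1 channels are lower than on the other arrays.

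The regulators themselves did not pass without the replicate block. Nfe2l2 was measured by 2 probes, of which the brighter gave 0.12 and 0.49 at day 5 and -0.16 and 0.39 at day 8, and the other 0.15 and 0.47 at day 5 and -0.07 and 0.37 at day 8. Both probes were above 0 on 3 arrays and below it on day 8 replicate 1. Its mean over both days was 0.21 (SE 0.12, 95% interval -0.10 to 0.51, adjusted p = 0.246, limma). With the replicate block Nfe2l2 passed over both days (SE 0.05, adjusted p = 0.0212) and at day 5 (adjusted p = 0.0265), but not at day 8 (adjusted p = 0.268). Keap1 gave 0.10 and -0.32 at day 5 and -0.20 and 0.01 at day 8, with 2 arrays on each side of 0, and a mean of -0.10 (SE 0.09, 95% interval -0.33 to 0.13, adjusted p = 0.445). These intervals leave room for a change of about 0.5 upwards in Nfe2l2 and 0.3 downwards in Keap1. Most regulation of Nrf2 is known to act on the protein, which an array does not measure.

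Glutathione is made in 2 steps, the first of which is carried out by glutamate-cysteine ligase, a pair of the catalytic subunit Gclc and the modifier subunit Gclm. Gclc gave -0.35 and -0.35 at day 5 and -0.18 and 0.11 at day 8. The 2 day 5 arrays thus agreed closely on a lower level, while the day 8 arrays lay on either side of 0. The means were -0.35 at day 5 (SE 0.09, 95% interval -0.59 to -0.11, adjusted p = 0.067, limma), -0.04 at day 8 (adjusted p = 0.83) and -0.19 over both days (adjusted p = 0.0851), none of which passed. With the replicate block Gclc passed at day 5 (adjusted p = 0.0257) and over both days (adjusted p = 0.038). Gclm gave -0.31 and -0.03 at day 5 and 0.03 and 0.13 at day 8, a mean of -0.04 over both days (SE 0.07, 95% interval -0.22 to 0.13, adjusted p = 0.663). Slc7a11, the light chain of the cystine importer that feeds glutathione synthesis, had normalised log2 intensities of 5.82 to 6.02 in the treated pools and 5.90 to 6.00 in the control pools across its 3 probes, all of which were not well above background. No ratio of Slc7a11 can be read from these arrays. Its partner Slc3a2, the heavy chain, was tested and gave -0.12 over both days, which did not pass.

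Hmox1 encodes heme oxygenase 1, the inducible enzyme that opens heme to biliverdin, carbon monoxide and iron, and is strongly expressed by Kupffer cells as well as being an Nrf2 target. It gave 0.12 and 0.08 at day 5 and -0.02 and -0.35 at day 8, above 0 on both day 5 arrays and below 0 on both day 8 arrays. The mean over both days was -0.04 (SE 0.07, 95% interval -0.23 to 0.14, adjusted p = 0.692, limma). This stood beside the lower macrophage markers given above, whose part in the Hmox1 ratio was not tested.

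**Figure D3:**
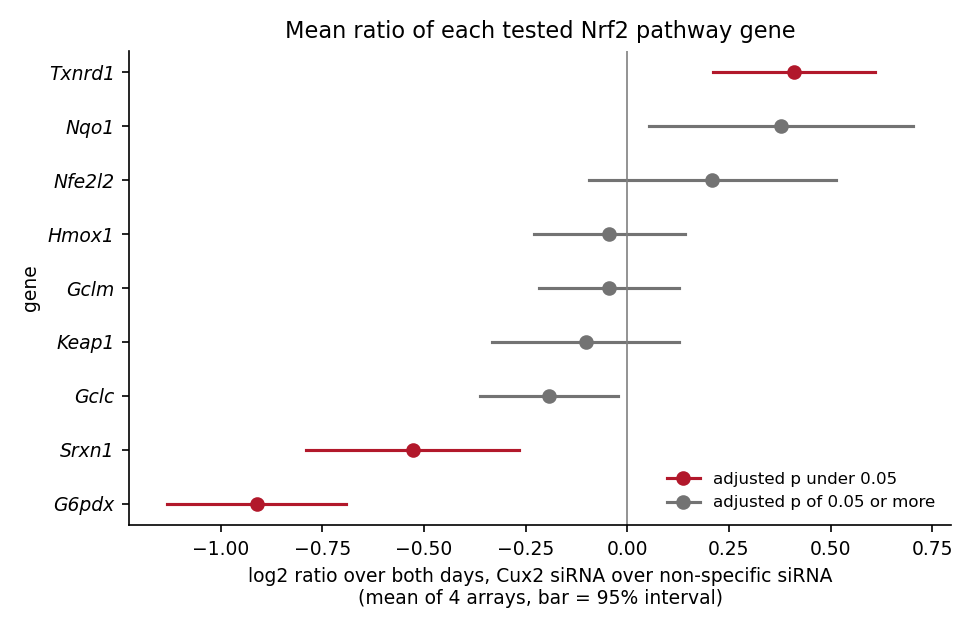
Mean log2 ratio over both days (point, 4 arrays) and 95% interval (bar) for each of the 9 tested genes, Cux2 siRNA over non-specific siRNA, with red for genes that passed at an adjusted p under 0.05. G6pdx (-0.91) and Srxn1 (-0.53) lie below 0, Txnrd1 (0.41) above it, and the intervals of Nfe2l2, Hmox1, Gclm and Keap1 include 0.

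None of the 9 genes passed for a difference between day 8 and day 5 (adjusted p = 1.00 for each, limma), and none had an unadjusted p under 0.05. Cux2, whose ratio was 0.67 higher at day 8 (SE 0.12, unadjusted p = 0.0031, limma), did not pass either. Failing this test therefore does not show that a gene was unchanged. Over all 25095 genes the fit also called 0 (0%). An unadjusted p under 0.05 was found for 621, fewer than that threshold would give if no gene differed. Arrays of the same replicate number correlated at 0.84 and 0.88 between days, and arrays of the same day at 0.79 and 0.71. This model keeps any shift between replicate numbers in its spread, which can widen the intervals below. With the replicate block 0 genes passed as well. Why the number was low was not tested. Gclc had the largest difference, 0.31 higher at day 8 (SE 0.13, 95% interval -0.03 to 0.65, unadjusted p = 0.065). Hmox1 was 0.29 lower at day 8 (-0.29, SE 0.14, 95% interval -0.66 to 0.08). For Txnrd1 the difference was 0.01 (95% interval -0.39 to 0.41), for Srxn1 -0.05 (95% interval -0.58 to 0.47) and for G6pdx -0.09 (95% interval -0.53 to 0.35).

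Replicate 2 minus replicate 1 had the same sign on both days for 8 of the 9 genes, Keap1 being the exception, against 65% of all genes. The treated pools of Srxn1 spanned 0.16 log2 units over the 4 arrays and its control pools 0.39. In the control pools Srxn1 was lower in replicate 2 on both days (-0.31 at day 5 and -0.25 at day 8), and in the treated pools it was higher (0.08 and 0.14). For G6pdx the treated pools spanned 0.15 and the control pools 0.31, with replicate 2 lower in the treated channel (-0.07 at day 5 and -0.15 at day 8) and higher in the control channel (0.24 and 0.16). For Nfe2l2, replicate 2 was higher in the treated channel (0.08 and 0.27) and lower in the control channel (-0.29 and -0.28). In these 3 genes, and in Nqo1, the channels moved in opposite directions between replicates on both days. In the other tested genes both channels moved the same way on at least 1 day, as in Gclm at day 8 (-1.57 treated and -1.66 control). The channel values follow loess, whose correction is shared equally by both channels, and scaling between arrays. The part of each channel in the gap was therefore not tested. Control pool and dye cannot be told apart here.

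The promoters of the 3 genes that passed are shown because antioxidant response elements are the sites through which Nrf2 is known to act. The windows searched were those of RefSeq genes on GRCm38.p6, 250 bases before to 50 after each annotated start. A window was found for 8 of the 10 genes, 10 windows in all, with 3 for Txnrd1. Searched on both strands, the element core TGACNNNGC occurred in 5 of the 10 windows, against 12.4% of the 32851 windows in the table. A second form, TGAGTCAGC, was added after the Srxn1 window had been read. It occurred in 0.414% of all windows, and it can overlap the core on the other strand. The 150 bases before the start are printed on the strand of the gene, and capitals mark a match of either form.
G6pdx, chrX:74428881-74429030, minus strand: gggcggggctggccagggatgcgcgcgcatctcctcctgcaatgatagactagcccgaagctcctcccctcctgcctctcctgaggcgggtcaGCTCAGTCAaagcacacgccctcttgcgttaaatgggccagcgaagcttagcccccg
Srxn1, chr2:152105374-152105523, plus strand: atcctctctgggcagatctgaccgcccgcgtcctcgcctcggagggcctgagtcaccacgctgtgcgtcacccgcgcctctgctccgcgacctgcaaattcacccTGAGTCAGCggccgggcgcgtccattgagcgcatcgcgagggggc
Txnrd1, second of 3 windows, chr10:82859056-82859205, plus strand: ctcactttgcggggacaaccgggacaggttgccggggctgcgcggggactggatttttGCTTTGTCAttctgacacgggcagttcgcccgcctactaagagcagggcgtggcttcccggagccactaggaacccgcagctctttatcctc

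In G6pdx the core lies on the opposite strand and begins, read along the gene, 57 bases before the start (-57). In Txnrd1 it also lies on the opposite strand, at -92. In Srxn1 the form TGAGTCAGC begins at -45 on the strand of the gene, and a core match lies at 29 bases after the start on the opposite strand. The window of Nfe2l2 held a core match at -240 and that of Gclm one at -134. No match of the core was found in these windows of Keap1, Nqo1 and Slc7a11. The 3 genes that passed in opposite directions thus all held a match in at least 1 window, and so did Gclm and Nfe2l2, which did not pass. The matches are a description of these letters only.

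Other genes of the pathway were read from lists drawn up by function. Beside the counts below, 14.8% of all genes tested rose over both days and 16.3% fell. The calls in these lists depended on loess: with median centring no gene passed in 6 of the 8, Ces1g and Gsta2 rose among the further targets and Trib3 fell in the ATF4 list, while every list median kept its sign. Among 17 tested regulators of Nrf2, 3 rose, 7 fell and 7 did not pass over both days (median -0.08), and 4 fell when day 5 replicate 2 was left out. Mafk, a small Maf partner of Nrf2, fell by 0.73 (SE 0.06, adjusted p = 0.00266, limma), and its relative Maff gave -0.66 (SE 0.13, adjusted p = 0.0237), a call that ended when day 5 replicate 1 (adjusted p = 0.0513) or day 8 replicate 1 (adjusted p = 0.0759) was left out. Mafg, the third small Maf, gave 0.01 and did not pass. Bach1, a repressor that competes with Nrf2 for its sites, fell by 0.39, a call lost without day 5 replicate 2 (adjusted p = 0.0717). Nfe2l1, an activator related to Nrf2, fell by 0.43. Nfe2l3, another relative, rose by 0.69 (SE 0.11, adjusted p = 0.0129), a call lost without day 8 replicate 2 (adjusted p = 0.0533). Its value moved with the processing, to 0.28 without background subtraction (adjusted p = 0.0503), 0.33 with the mean of all probes and 1.14 with processed signals. Syvn1, a ubiquitin ligase of the endoplasmic reticulum, rose by 0.37 (SE 0.05, adjusted p = 0.00827), or by 0.20 with the mean of all probes. The value of Mafk was -0.47 without background subtraction. The ligase subunits that work with Keap1, Cul3 (-0.21) and Rbx1 (-0.08), and the Keap1-binding autophagy receptor Sqstm1 (0.06) did not pass.

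Among 29 tested further targets of Nrf2, 10 rose, 3 fell and 16 did not pass, with a median of 0.19. The falls were those of Txn1 and Gsr, given above with Txnrd1, and of Abcc2. With median centring 2 rose and 0 fell (median 0.18), and with the replicate block 16 rose and 5 fell. Of all 25095 genes, 87 rose and 182 fell with median centring, and 5554 rose and 5692 fell with the block. Many of these genes are known to be controlled by nuclear receptors of liver as well. Ces1g, a carboxylesterase, rose 2.55-fold (log2 1.35, SE 0.12, adjusted p = 0.00302, limma) and the glutathione S-transferase Gsta2 rose 2.44-fold (1.28, SE 0.16, adjusted p = 0.00681). Gsta1, Gsta4, Gstm1 and Gstm3 of the same enzyme class rose as well, by 0.39 to 1.02, although probes for such close relatives can share signal. Ephx1, microsomal epoxide hydrolase, rose by 0.72, a call lost without day 8 replicate 2 (adjusted p = 0.0513), and Aox1, aldehyde oxidase, rose by 0.68. Abcc2, the canalicular pump for glutathione conjugates, fell by 0.65 (SE 0.12, adjusted p = 0.0182), a call lost without day 5 replicate 1 (adjusted p = 0.0653) or day 5 replicate 2 (adjusted p = 0.0633). Prdx1 (-0.09), Osgin1 (-0.21), Gpx2 (0.04), Cbr3 (0.19) and the ferritin chains Ftl1 (-0.05) and Fth1 (-0.51) did not pass.

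Of 19 tested genes of glutathione synthesis, recycling and use, 1 rose, 4 fell and 14 did not pass (median -0.09). Chac1, which degrades glutathione in the cytosol, had the largest fall, to 25.2% of control (log2 -1.99, SE 0.24, adjusted p = 0.00604, limma). Its ratios were -2.57 and -1.59 at day 5 and -1.36 and -2.43 at day 8. Without background subtraction the Chac1 mean over both days was -1.34. Cdo1, which diverts cysteine to taurine synthesis, fell by 0.77 (SE 0.14, adjusted p = 0.0185), a call lost without day 5 replicate 2 (-0.66, adjusted p = 0.069), and Cbs, which starts the route from homocysteine to cysteine, fell by 0.46, a call lost without day 8 replicate 2 (adjusted p = 0.0539). Oplah, which recovers glutamate from the breakdown of glutathione, rose by 0.38 (SE 0.05, adjusted p = 0.00861). Glutathione synthetase, Gss, gave -0.04 and did not pass.

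Of 18 tested genes of the thioredoxin and peroxiredoxin system, 3 rose, 7 fell and 8 did not pass (median -0.09), and 1 rose when day 5 replicate 2 or day 8 replicate 2 was left out. Prdx6, a peroxiredoxin that uses glutathione, rose by 0.57 (SE 0.07, adjusted p = 0.0055, limma), and Secisbp2, which directs selenocysteine insertion, by 0.33 (SE 0.05, adjusted p = 0.0113), a call that ended when day 5 replicate 2 (adjusted p = 0.0639) or day 8 replicate 2 (adjusted p = 0.0575) was left out. Msrb1, a methionine sulfoxide reductase, fell by 0.60 (SE 0.07, adjusted p = 0.00602) and the stress protein Sesn3 fell by 0.58 (SE 0.09, adjusted p = 0.01), a value that was -0.33 without background subtraction. The mitochondrial pair Txn2 (0.06) and Txnrd2 (0.03) did not pass. Among 10 genes that remove superoxide and peroxide, Sod3, the extracellular superoxide dismutase, fell by 0.38 (SE 0.05, adjusted p = 0.00678; -0.13 without background subtraction and -0.62 with processed signals), and the other 9 did not pass, among them Cat (0.42), Sod1 (0.33) and Sod2 (-0.11).

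The list of NADPH supply also held other pentose phosphate enzymes and the mitochondrial malic enzyme. Of its 12 tested genes, 3 rose, 2 fell and 7 did not pass (median 0.10). Idh1, cytosolic isocitrate dehydrogenase, rose by 0.63 (SE 0.06, adjusted p = 0.00345, limma) and Rpe, of the pentose phosphate pathway, by 0.44 (SE 0.05, adjusted p = 0.00531). Me2, the mitochondrial malic enzyme, fell by 0.76 (SE 0.08, adjusted p = 0.00397), a value that was -0.52 without background subtraction. H6pd, the relative of G6pdx in the endoplasmic reticulum, gave -0.43 (SE 0.08, adjusted p = 0.0196), a call that ended when day 5 replicate 1 (adjusted p = 0.0685) or day 5 replicate 2 (adjusted p = 0.0788) was left out, so that 1 gene of the list fell in either case. The later pentose phosphate enzymes Pgls (0.13), Tkt (0.05) and Taldo1 (-0.23) and the cytosolic malic enzyme Me1 (0.31) did not pass.

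The list of heme breakdown and iron storage also held genes of heme synthesis and of heme and iron transport. Of its 11 tested genes, 2 rose, 5 fell and 4 did not pass (median -0.32). The plasma scavengers haemopexin, Hpx, and haptoglobin, Hp, fell by 2.64 (SE 0.30, adjusted p = 0.00553, limma) and 2.18 (SE 0.29, adjusted p = 0.00787). Both are also acute phase proteins. Hmox2, the constitutive heme oxygenase, fell by 0.58. Blvrb, a biliverdin reductase, rose by 0.58 (SE 0.05, adjusted p = 0.00352) and Alas1, which starts heme synthesis, by 0.81 (SE 0.08, adjusted p = 0.0038).

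**Figure D4:**
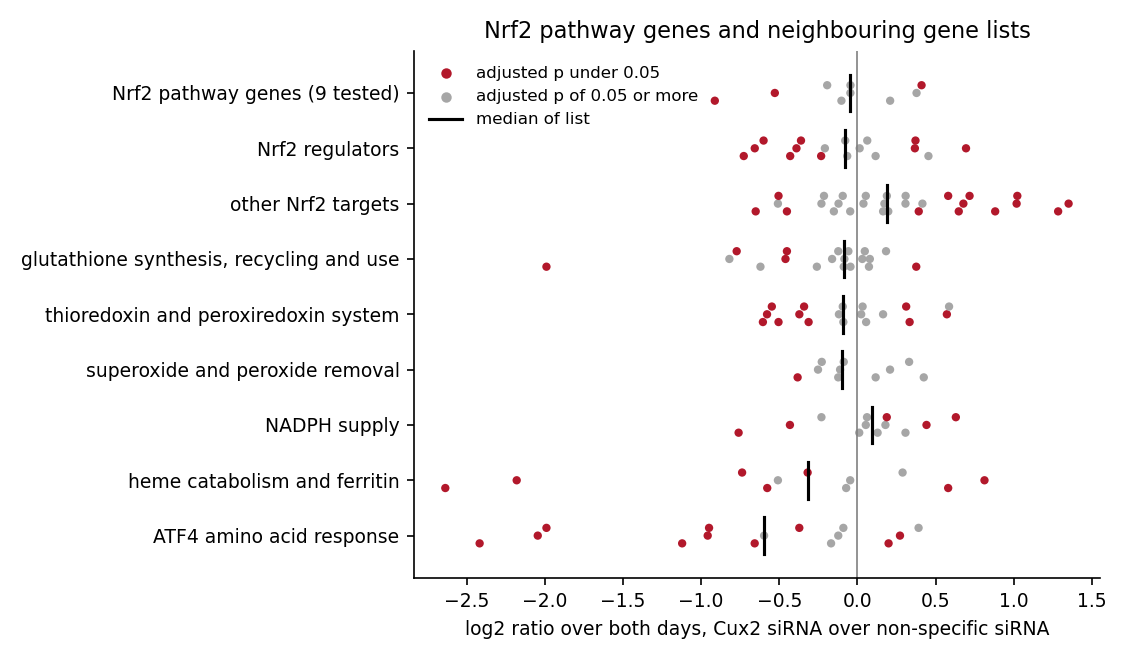
Each point is the mean log2 ratio of 1 gene over both days (horizontal axis), Cux2 siRNA over non-specific siRNA, in the Nrf2 pathway genes and 8 lists of related function (vertical axis; some genes are in more than 1 list), with red for genes that passed and black lines for list medians. The 9 tested Nrf2 pathway genes span -0.91 to 0.41, the further targets extend up to 1.35 and the ATF4 list down to -2.42.

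The genes whose ratios over the 4 arrays lay nearest to those of G6pdx, by root mean square difference among 13826 genes with a gene symbol, were Cenps, Prss22 and Evi2, at 0.0481, 0.0502 and 0.0558 log2 units. None of these 3 is in the lists above.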

How the data were processed

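The members and lists were chosen with earlier results of these data known. Per the file headers, Agilent Feature Extraction 10.7.1.1 made the scanner files. Their intensity values are the deposited median brightness of each spot and its local background, and processed intensity values made by the scanner software. Deposited flags mark spots above background or outlying. The authors' value table holds log10 ratios. It equalled the scanner's log10 ratio within 1e-05 for all 45018 features once turned to treated over control, and each column had a median of 0. Background correction was by normexp (offset 50; limma 3.58.1, R 4.3.3). Ratios were normalized by loess with 1639 control spots at weight 0, 181 to 298 outlying spots per array were left out, and spots were averaged per probe. RefSeq accessions named 23374 of 41174 probes (56.8%), and the other 17800 kept their accession. Probes well above background in at least 2 of 8 channel readings were kept (31765). The brightest stood for each of the 5372 genes with several. Channel intensities were scaled between arrays by Aquantile. Directions came from the dyes in the labels. Residual degrees of freedom were 2 in the main model, with 2.78 from the prior, and the number of arrays limits the precision of the model. The replicate block, and each fit without 1 array, left fewer. The model was tested on simulated arrays with independent noise. That test does not cover ratios that share a dye orientation or a control pool. The genes named are the 10 genes, Cux2, the 2 largest rises and falls of each list among genes past the threshold and moving 1 way on all 4 arrays (1 each for cell types), and the 3 genes nearest in pattern to the members with the largest rise and fall. Those nearest to the largest rise are not reported here. Other genes in the text were named after their values were seen. Alternatives covered background, normalization, filter, probe choice, each array left out and the replicate number as a term.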

Additional observations from a re-analysis of the deposited data

Results flagged for a closer look

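Gclm and Hmox1 lay on opposite sides of 0 on the 2 days, with both arrays of each day on the same side. Some of these ratios were next to 0. Gclm gave -0.032 on day 5 replicate 2 and 0.033 on day 8 replicate 1, and Hmox1 gave -0.020 on day 8 replicate 1. The share of all genes with this pattern was not counted. Gclm was below 0 at day 5 and above 0 at day 8, and its day 8 ratio was higher by 0.25 (0.253, SE 0.13, unadjusted p = 0.116, adjusted p = 1.00, limma). Hmox1 was above 0 at day 5 and below 0 at day 8, with a difference of -0.29 (-0.286, SE 0.14, unadjusted p = 0.103, adjusted p = 1.00). Neither difference passed the test between days.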

How the results depend on the processing

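With 4 arrays in 1 model, the number of passing genes depended on the settings, and leaving out an array left its day with 1, assumed to vary like the others. Of the 9 tested genes, 0 passed at either day with median centring, without background subtraction, with the scanner's processed signals and with the authors' log10 values. At day 8 the mean of all probes gave 2. Leaving out 1 array gave 0 to 1 at day 5, 0 to 1 at day 8 and 2 to 3 over both days. Over both days median centring gave 0. Over all genes median centring gave 5 at day 5 (20% rose, against 43.9%), 3 at day 8 (0% rose, against 43.8%) and 269 over both days (32.3% rose, against 47.5%). Processed signals gave 2028 at day 5 and 1476 at day 8, the authors' values 2015 and 1467, and no background subtraction 2108 at day 8. Leaving out 1 array gave 239 (without day 5 replicate 2) to 3605 genes at day 5, 137 (without day 8 replicate 2) to 2473 at day 8 and 3880 to 5504 over both days. The causes were not tested.

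With the replicate block 6 of the 9 genes passed at day 5, 3 at day 8 and 6 over both days, and 8228, 7451 and 11246 of all genes. Across 25091 genes the deviations of replicate 1 from its day mean correlated at 0.50 between days, and arrays of the same number share the dye orientation and possibly the control pool, but with only 2 pairs the pairing could not be tested further.

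Of the members' ratios under alternatives, 373 kept their sign and side of the threshold and 26 changed sign, none of a gene that passed in the contrast concerned. Without background subtraction Gclc at day 8 was 0.016 and the Txnrd1 day difference -0.0034. With processed signals and the authors' values alike, Hmox1 over both days was 0.0096, and the day differences of Keap1 and Txnrd1 were -0.0027 and -0.045. Leaving out 1 array in turn gave -0.32 to 0.10 for Keap1 at day 5. At day 8 it gave -0.16 to 0.39 for Nfe2l2, -0.20 to 0.0051 for Keap1 and -0.18 to 0.11 for Gclc. Over both days it gave -0.21 to 0.0023 for Keap1, -0.11 to 0.025 for Gclm and -0.13 to 0.039 for Hmox1. Day 8 minus day 5 ran from -0.47 to 0.084 for Nfe2l2, -0.20 to 0.22 for Keap1, -0.45 to 0.21 for Nqo1, -0.14 to 0.17 for Txnrd1, -0.25 to 0.14 for Srxn1 and -0.25 to 0.067 for G6pdx.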

Other observations

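Slc7a11 could not be read, but other genes of the amino acid response driven by Atf4, to which it also belongs, were measured. Of 15 tested genes of that list, 8 fell, 2 rose and 5 did not pass over both days, with a median of -0.60, and 8 fell whichever array was left out, but 1 with median centring (median -0.62). Trib3, a pseudokinase induced by Atf4, fell by 2.42 (SE 0.06, adjusted p = 0.000379, limma), with ratios of -2.32 and -2.46 at day 5 and -2.34 and -2.55 at day 8. With the mean of all its probes Trib3 was at -1.56. Without background subtraction it was at -1.80, and the median of the list was -0.37. Psat1, of serine synthesis, fell by 2.04 (SE 0.17, adjusted p = 0.00289), with -0.99 without background subtraction, and Asns, asparagine synthetase, by 1.12. Atf4 itself rose by 0.27 (SE 0.05, adjusted p = 0.0198) and Shmt2, a mitochondrial enzyme of serine use, by 0.20 (SE 0.05, adjusted p = 0.043). Both of these calls were lost whichever array was left out, for Atf4 at adjusted p-values of 0.0522 to 0.102 and for Shmt2 of 0.113 to 0.186.

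The remaining marker lists moved as follows over both days. Among 8 hepatocyte markers 1 rose and 2 fell, among 9 bile duct markers 1 rose and 1 fell, among 10 endothelial markers 2 rose and 3 fell, among 10 stellate cell markers 3 rose and 5 fell, and among 6 red cell markers 1 rose and 1 fell. Without day 5 replicate 2 or day 8 replicate 2 the endothelial counts were 0 and 1, and whichever array was left out 3 stellate cell markers fell. With median centring no marker of these 5 lists passed. The neutrophil list had a median of -0.59, and S100a9 had the largest fall in it (-2.50, SE 0.25, adjusted p = 0.00398, limma).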
